A study of Mus musculus with 78 samples.

Results

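The transcripts described here are 9 genes of the B cell, Cd79a, Cd79b, Ms4a1, Cd22, Fcer2a, Fcmr, Blk, Pax5 and Ly6d, of 18820 genes named on the array, each read from the probe set that carries its symbol alone. Each had 1 such probe set, all 9 were tested in every comparison, and each had a mean log2 intensity above 6 over the 78 lung arrays, the minimum used in an alternative. Lungs came from male C57BL/6J mice about 10 weeks old, 1 mouse per array, all of them fed only in the dark for 14 days beforehand and killed by cervical dislocation. Sleep-deprived mice had been kept awake by gentle handling from lights on for 3 h (9 mice), 6 h (9), 9 h (9) or 12 h (8). Sleeping mice were left undisturbed and killed at the same hours (9, 7, 9 and 9 mice), and 9 baseline mice were killed at lights on. All mice had also been accustomed to an experimenter's presence and touch. The question was whether transcripts of these cells in the lung differ between the states, and when.

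B cells carry the B cell receptor, a membrane immunoglobulin paired with the Cd79a and Cd79b chains, which pass the signal inward. Blk is a kinase of the Src family that phosphorylates those chains, and Cd22 is a lectin that damps the signal. Ms4a1 encodes CD20, a membrane protein of mature B cells. Fcer2a encodes CD23, the low-affinity IgE receptor, and Fcmr encodes a receptor for IgM. Pax5 is the transcription factor that commits a cell to the B lineage and keeps it there. Ly6d is a small surface protein used as a marker of committed B progenitors, and it is also made by stratified epithelia and thymocytes. In the lung, B cells lie in the blood of its vessels, in the tissue and in small lymphoid clusters, and blood lymphocytes of rodents vary over the day.

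The genes lie on 8 chromosomes (GRCm38.p6). Cd79a and Cd22 are both on chromosome 7, at chr7:24897497-24901858 and chr7:30865404-30880342. The others are Cd79b at chr11:106311341-106314562, Ms4a1 at chr19:11249679-11266149, Fcer2a at chr8:3680280-3694174, Fcmr at chr1:130865777-130880790, Blk at chr14:63372837-63417187, Pax5 at chr4:44524748-44710694 and Ly6d at chr15:74762056-74763567. Promoter sequence was available in the RefSeq table used here (GRCm38.p6, 300 bases around a start) for Cd79a, Cd22, Fcer2a, Fcmr and Pax5. Fcer2a has several promoters there, not all of them with a match. In the counts below a gene counts if any of its promoters matches, while the shares are per promoter, so the measures are unlike. As examples, 3 of these promoters are shown, a receptor chain, the IgM receptor and the lineage factor, each 5′ to 3′ on the strand of the gene. Capitals mark matches on either strand to AGGAAG (the core that Ets factors such as PU.1 bind) or CAGGTG (an E-box of the kind bound by E2A).
Cd79a promoter (chr7:24897247-24897546, plus strand): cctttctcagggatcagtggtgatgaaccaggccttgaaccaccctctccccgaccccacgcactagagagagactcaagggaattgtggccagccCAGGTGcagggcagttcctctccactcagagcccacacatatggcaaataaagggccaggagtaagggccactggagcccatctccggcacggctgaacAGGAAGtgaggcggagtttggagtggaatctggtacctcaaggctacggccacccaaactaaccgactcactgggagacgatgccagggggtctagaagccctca
Fcmr promoter (chr1:130865527-130865826, plus strand): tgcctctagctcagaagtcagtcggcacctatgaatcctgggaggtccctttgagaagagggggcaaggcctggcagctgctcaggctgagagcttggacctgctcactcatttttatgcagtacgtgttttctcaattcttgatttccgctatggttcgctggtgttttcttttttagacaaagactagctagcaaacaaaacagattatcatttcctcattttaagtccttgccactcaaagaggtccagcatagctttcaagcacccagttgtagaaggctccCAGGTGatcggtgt
Pax5 promoter (chr4:44710645-44710944, minus strand): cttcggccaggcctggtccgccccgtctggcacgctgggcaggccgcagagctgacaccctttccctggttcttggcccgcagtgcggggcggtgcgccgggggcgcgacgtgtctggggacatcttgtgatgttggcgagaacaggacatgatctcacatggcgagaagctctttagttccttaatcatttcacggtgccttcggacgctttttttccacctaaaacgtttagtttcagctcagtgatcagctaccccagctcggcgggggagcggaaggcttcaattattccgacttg
CAGGTG was found in a promoter of 4 of the 5 genes (Cd79a, Cd22, Fcer2a and Fcmr), against 20.2% of the 32851 promoters of the same length in the table. AGGAAG was found for Cd79a and Fcer2a, against 35.4% of all promoters. CCCNNGGG, in which the half-sites of EBF1 lie, was found for Cd22, against 13.7%. The octamer ATGCAAAT was found for none of the 5, against 1.7%. No match overlapped another, and a match is only a match of letters.

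Conditions were taken as labelled, but 16 arrays stand apart in their numbering. When the order of conditions is laid along the array numbers, 15 arrays fall on a condition other than their label, and array 81 stands out of order. In a check on 200 probe sets, with the array in question left out, the profile of each of the 15 was closest to the condition laid on its number and that of none to its label, while 60 of the remaining 62 were closest to their own label. The profile of array 81, labelled as 12 h of deprivation, was closest to 6 h of sleep. Array 27, a mouse deprived for 12 h, stood apart in another way. Its 11 T cell genes averaged 3.04 above their mean over the arrays, against at most 0.97 in the 77 others, and its Dntt, an enzyme of immature lymphocytes, read 9.56 against at most 6.62. Results are given for all 78 arrays, and the main counts also without these arrays. The array numbers were also cut into 4 runs, at the places where the labelled conditions start again, with array 81 put into run 1. No label names a run or batch, and arrays 20, 36 and 66, each beside a cut, are among the 16. Of the runs, 2 hold the 3 h and 6 h mice with all of baseline and 2 hold the 9 h and 12 h mice. Early and late hours therefore cannot be told apart from the runs. Both states occur in every run.

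Over all hours, the B cell transcripts were lower in sleep-deprived than in sleeping lungs. Of the 9, 8 fell past an adjusted p of 0.01 and none rose, where 2.89% of the 35556 probe sets fell and 2.7% rose. The median difference of the 9 was −0.67 on the log2 scale, against 0.0046 over all probe sets. In a bulk lung, fewer B cells and less of these RNAs per cell cannot be told apart. The largest difference was that of Fcer2a, whose level ran from 6.46 through a median of 7.38 to 8.63 in the 35 sleep-deprived mice, and from 6.22 through 8.34 to 9.36 in the 34 sleeping mice. Its difference was −0.79 ± 0.14 (SE, limma adjusted p = 7.3e-05). The states overlapped in range for every one of the 9, with the medians apart.

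Both chains of the receptor fell. Cd79a read 8.00, 9.07 and 10.17 (lowest, median, highest) in sleep-deprived mice and 8.01, 9.76 and 10.36 in sleeping mice, a difference of −0.67 ± 0.12 (limma adjusted p = 5.6e-05). Cd79b read 8.84, 9.55 and 10.54 in sleep-deprived mice and 8.87, 10.29 and 11.14 in sleeping mice, a difference of −0.65 ± 0.11 (adjusted p = 1.7e-05). Among the other surface proteins, Ms4a1 differed by −0.73 ± 0.13 (adjusted p = 7.1e-05), Fcmr by −0.71 ± 0.12 (adjusted p = 3.5e-05) and Cd22 by −0.57 ± 0.10 (adjusted p = 2.1e-05). The kinase Blk differed by −0.57 ± 0.11 (adjusted p = 1.5e-04). Pax5 had the smallest p of the 9, with 6.64, 7.30 and 8.21 in sleep-deprived mice and 6.77, 8.01 and 8.90 in sleeping mice, and differed by −0.67 ± 0.11 (adjusted p = 8.0e-06). Ly6d alone missed the threshold, with 6.25, 7.06 and 8.99 in sleep-deprived mice and 6.81, 7.59 and 9.40 in sleeping mice, a difference of −0.56 ± 0.16 (adjusted p = 0.011). Without the 16 arrays the same direction held for all 9, with differences of −1.02 to −0.60 and 8 past the threshold (3.97% of probe sets were lower). Within each of the 4 runs all 9 were lower, with medians of −0.48, −0.83, −0.55 and −0.97.

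**Figure D1:**
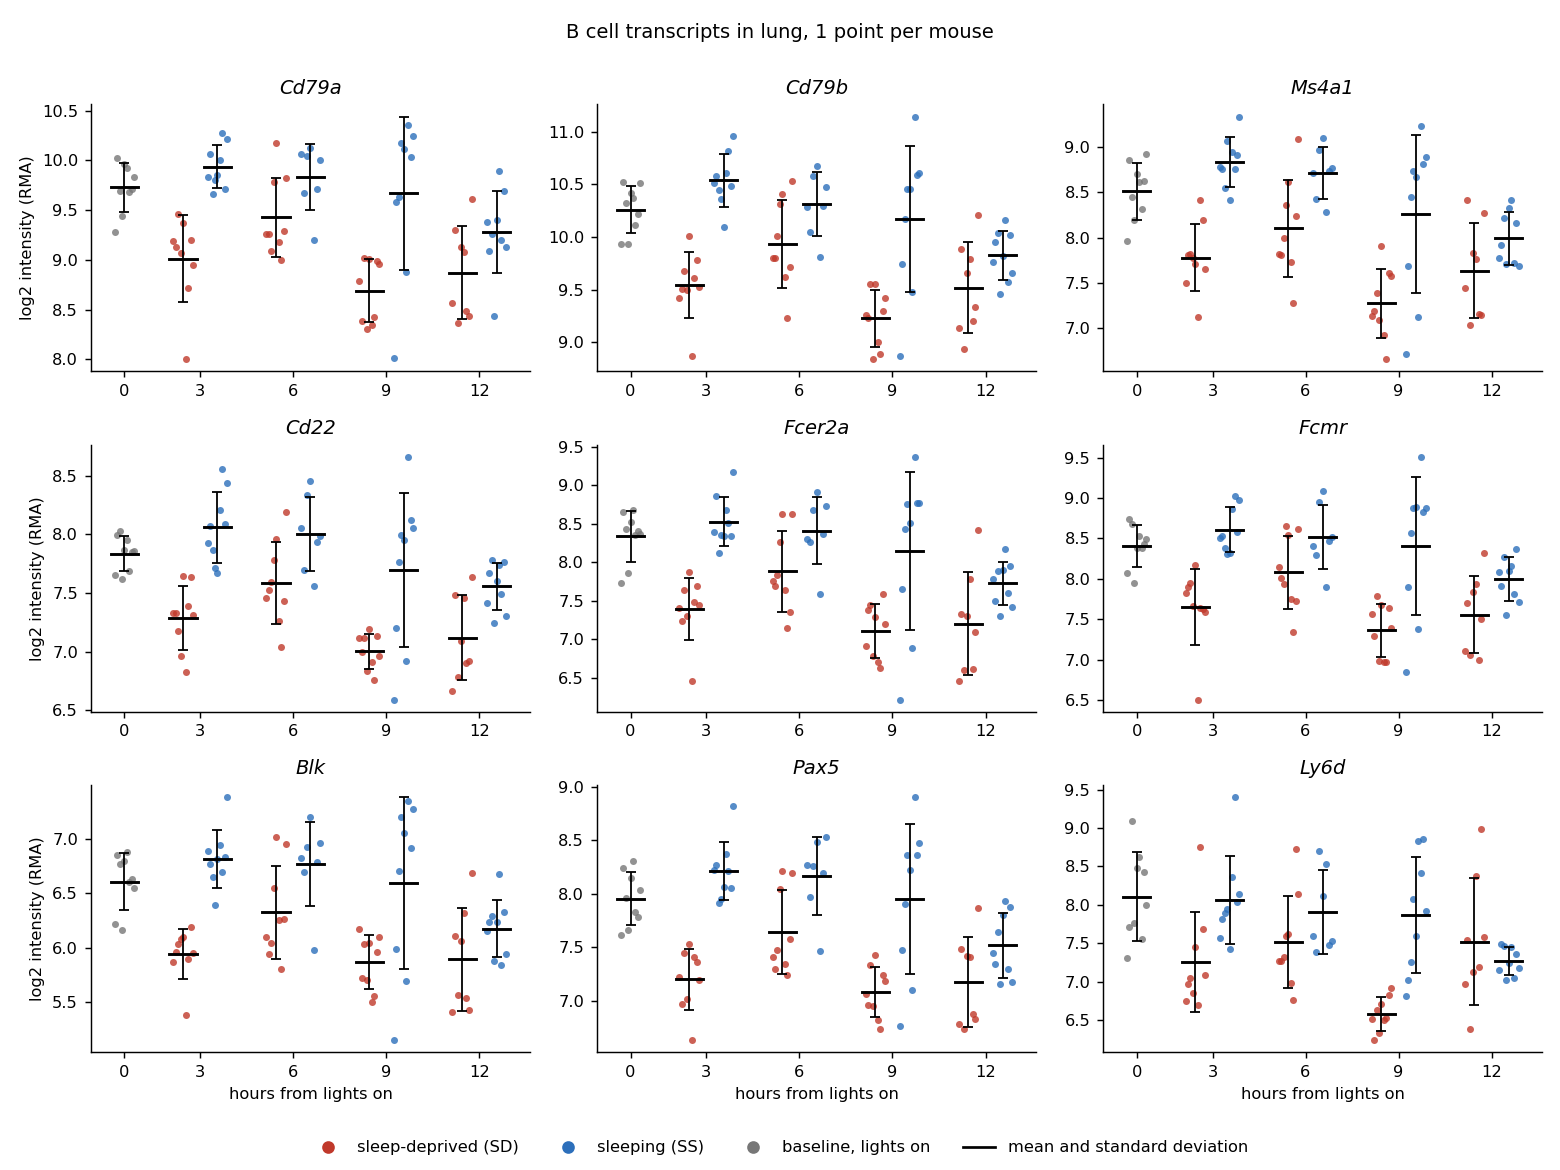
Log2 intensity of each B cell transcript (vertical axes) in each mouse against hours from lights on (horizontal axes), with baseline at 0 h and sleep-deprived mice left of sleeping mice at each hour; points are mice, bars the group mean and standard deviation. At 3 h all 9 sleep-deprived mice lie below all 9 sleeping mice in 7 of the 9 panels, and at 9 h the sleeping mice spread the most.

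The differences by hour came from a single fit. After 3 h of deprivation, 8 of the 9 transcripts fell past the threshold and none rose, where 2.35% of probe sets fell and 3.76% rose, and every mean was lower, by −1.14 (Fcer2a) to −0.77 (Cd22). For 7 of the 9, every sleep-deprived mouse lay below every sleeping mouse, an arrangement found in 0.475% of probe sets. Cd79b read 8.87, 9.52 and 10.004 in the 9 sleep-deprived mice and 10.09, 10.51 and 10.96 in the 9 sleeping mice, and Pax5 read 6.64, 7.22 and 7.53 against 7.92, 8.22 and 8.82. These had the smallest p among the 9 transcripts at that hour, with differences of −0.99 ± 0.17 for Cd79b and −1.01 ± 0.18 for Pax5 (limma adjusted p = 4.6e-05 for each). Fcer2a, the IgE receptor, read 6.46, 7.44 and 7.87 in sleep-deprived mice and 8.12, 8.39 and 9.17 in sleeping mice, again without overlap. Fcmr, the IgM receptor, read 6.51, 7.66 and 8.17 in sleep-deprived mice and 8.31, 8.52 and 9.02 in sleeping mice. Cd22, the inhibitory lectin, read 6.83, 7.33 and 7.65 in sleep-deprived mice and 7.67, 8.07 and 8.56 in sleeping mice, and its gap was the narrowest of the 7. The kinase Blk read 5.38, 5.96 and 6.19 in sleep-deprived mice and 6.39, 6.82 and 7.39 in sleeping mice. As a ratio of sleeping over sleep-deprived means, Fcer2a stood at 2.20 and Cd22 at 1.71. Ms4a1 overlapped by a single pair, its highest sleep-deprived mouse at 8.42 and its lowest sleeping mouse at 8.41. Ly6d overlapped widely and missed the threshold (−0.81 ± 0.27, adjusted p = 0.034). When the 16 arrays were left out 8 of the 9 passed (2.76% of probe sets were lower) and 8 did not overlap (1.41% of probe sets).

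After 6 h none of the 9 passed, where 0.0366% of probe sets were lower and 0.0225% higher past the threshold, although all 9 means were lower (−0.61 to −0.37) and 6 had an unadjusted p under 0.05. Cd79b read 9.23, 9.80 and 10.54 in 9 sleep-deprived mice and 9.81, 10.30 and 10.67 in 7 sleeping mice. The groups overlapped for all 9 transcripts, and 0.00844% of probe sets did not overlap. Arrays 51 and 74, both among the 16, were the highest sleep-deprived mice for 7 of the 9, and array 66, also among them, was the lowest sleeping mouse for 8 of the 9. Without the 16 arrays, 5 passed (Ms4a1, Cd22, Pax5, Blk and Fcer2a), where 0.858% of probe sets were lower, and 3 of the 9 did not overlap, as in 0.678% of probe sets. Of the 5, Ms4a1 had the largest difference, −0.90 ± 0.20 (adjusted p = 0.0019).

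After 9 h, 8 of the 9 fell and none rose, where 1.41% of probe sets fell and 1.15% rose. The differences ran from −1.28 (Ly6d) to −0.69 (Cd22), and Blk just missed (−0.73 ± 0.19, adjusted p = 0.0102). In the 9 sleep-deprived mice Cd79b read 8.84, 9.26 and 9.56, and in the 9 sleeping mice 8.87, 10.46 and 11.14. Every sleep-deprived mouse lay below the sleeping median for each of the 9 transcripts, yet the groups overlapped for all 9, where 0.0506% of probe sets did not overlap. Ms4a1, encoding CD20, read 6.66, 7.19 and 7.91 in sleep-deprived mice and 6.71, 8.67 and 9.23 in sleeping mice. Fcmr read 6.97, 7.39 and 7.79 in sleep-deprived mice and 6.84, 8.83 and 9.51 in sleeping mice, the highest of which lay far above every deprived mouse. Ly6d read 6.25, 6.53 and 6.93 in sleep-deprived mice and 6.81, 7.92 and 8.86 in sleeping mice. The lowest sleeping mice for the 8 others were arrays 10 and 28, both among the 16. Fcer2a, for example, read 6.22 and 6.88 in these 2 mice and 7.65 to 9.36 in the other 7 sleeping mice. Without the 16 arrays, 9 of 9 passed, where 2.64% of probe sets were lower, and 7 of 9 did not overlap, as in 0.914% of probe sets. With the 9 h mice alone, where the spread is not shared with the other groups, none of the 9 passed. Leaving out sleeping mouse 7 or 8 at 9 h took the count of 8 down to 5. Shares of all probe sets are not given for these settings, so these counts cannot be set against them.

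After 12 h none of the 9 passed, where 0.0534% of probe sets were lower and 0.0281% higher past the threshold. Of the 9, 8 means were lower (−0.53 to −0.28) and 3 of these had an unadjusted p under 0.05, and Ly6d differed by +0.25 ± 0.28. Cd79b read 8.94, 9.50 and 10.21 in the 8 sleep-deprived mice and 9.46, 9.82 and 10.16 in the 9 sleeping mice. The groups overlapped for all 9, where 0.0984% of probe sets did not overlap. Array 81, one of the 16, was the highest of the deprived mice for 7 of the 9, and without the 16 arrays the count at 12 h was still 0. The test of a change in the difference over the 4 hours passed for none of the 9, where 0.0562% of probe sets did, with Ly6d (adjusted p = 0.067) and Cd79b (adjusted p = 0.15) nearest. A difference between the hours was not shown for any of them, and 3 had an unadjusted p under 0.05 (Ly6d, Cd79b and Pax5).

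**Figure D2:**
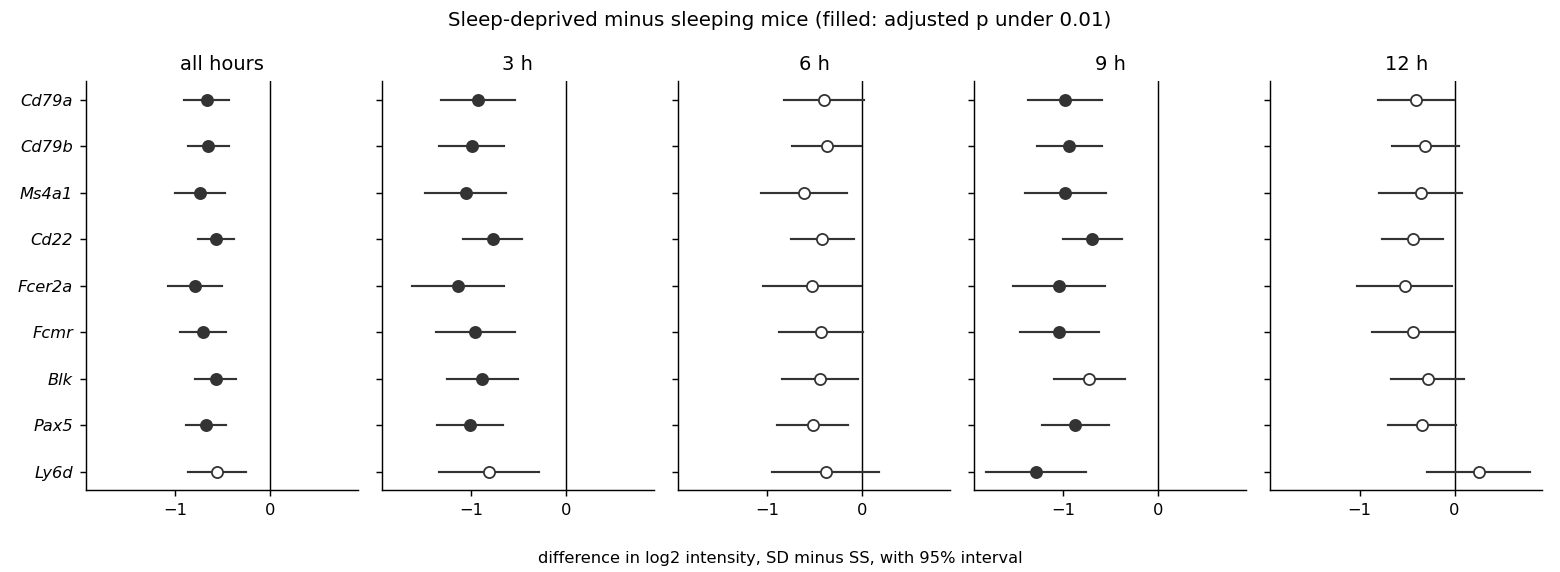
Sleep-deprived minus sleeping mean (horizontal axes, log2 units) for each of the 9 transcripts (rows), over all hours and at 3, 6, 9 and 12 h; lines are 95% intervals (normal, from limma's moderated SE), and filled points passed an adjusted p of 0.01. Counts of filled points are 8, 8, 0, 8 and 0, and Ly6d at 12 h is the only point above 0.

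Set against lights on, transcripts were lower past the threshold after 3, 9 and 12 h of deprivation and at no hour of sleep. The 8 comparisons with baseline share its 9 mice. Baseline lies among the runs of the early hours, so its differences from the 9 h and 12 h groups of either state cannot be told apart from the runs. After 9 h of deprivation 9 of 9 were lower past the threshold (6.51% of probe sets were lower and 6.37% higher), with Cd79b at −1.03 ± 0.17 (limma adjusted p = 1.1e-05) and Ly6d at −1.53 ± 0.27 (adjusted p = 2.1e-05). After 12 h of deprivation 7 of 9 were lower (1.81% of probe sets were lower and 1.73% higher), with Blk (adjusted p = 0.012) and Ly6d (adjusted p = 0.25) outside. After 3 h Cd79b and Pax5 were lower (0.56% of probe sets were lower and 0.712% higher), and 7 were without the 16 arrays (1.42% of probe sets). After 6 h none was (0.045% lower and 0.186% higher), with a difference of −0.33 ± 0.17 for Cd79b, which read 9.93, 10.32 and 10.52 at baseline. In sleeping mice none of the 9 passed at 3, 6, 9 or 12 h (0.00281%, 0.09%, 1.15% and 1.67% of probe sets were lower, and 0.00844%, 0.138%, 1.39% and 2.5% higher), with medians of 0.21, 0.11, −0.09 and −0.43. At 12 h of sleep all 9 means were below baseline and 7 had an unadjusted p under 0.05. Without the 16 arrays 3 of them passed at that hour (3.23% of probe sets were lower), Fcer2a (−0.76 ± 0.19, adjusted p = 0.0037), Blk (−0.57 ± 0.15) and Cd79a (−0.61 ± 0.17).

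A line was fitted from baseline through the hours of each state. Over 12 h of deprivation 8 of the 9 had a negative slope past the threshold, where 4.14% of probe sets had one and 4.27% a positive one, from −1.04 ± 0.23 per 12 h for Fcer2a (limma adjusted p = 9.6e-04) to −0.61 ± 0.16 for Blk. Ly6d had a slope of −0.79 ± 0.30 (adjusted p = 0.066). With the 4 runs as a block none of the 8 kept its call, and no share of all probe sets is given for that setting. Over 12 h of sleep none of the 9 passed, where 2.19% of probe sets had a negative and 3.25% a positive slope past the threshold, but all 9 slopes were negative, from −0.75 ± 0.23 for Ly6d to −0.37 ± 0.16 for Cd22, each with an unadjusted p under 0.05. Between consecutive hours of deprivation, 4 transcripts (Cd79a, Cd79b, Ms4a1 and Cd22) were lower at 9 h than at 6 h (2.36% of probe sets were lower and 2.25% higher), a count of 0 without the 16 arrays (1.79% lower). The step from 6 h to 9 h lies between runs and cannot be told apart from them. None differed between 6 h and 3 h of deprivation (0.188% lower, 0.0619% higher) or between 12 h and 9 h (0.00562% each way). Between consecutive hours of sleep none of the 9 differed with all arrays (0% each way for 6 h against 3 h, 0.366% lower and 0.357% higher for 9 h against 6 h, 0% lower and 0.0141% higher for 12 h against 9 h), and 6 were lower at 12 h than at 9 h without the 16 (0.861% of probe sets), of which Blk had the smallest p (−0.82 ± 0.15, adjusted p = 1.3e-04).

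With all 78 arrays, averaged over the 9 transcripts with each set to 0 at its mean over the 78 arrays, the groups stood in the order 3 h of sleep (0.58), 6 h of sleep (0.47), baseline (0.37), 9 h of sleep (0.26), 6 h of deprivation (0.01), 12 h of sleep (−0.12), 3 h of deprivation (−0.37), 12 h of deprivation (−0.44) and 9 h of deprivation (−0.69). No neighbours in this order differed for any of the 9 past the threshold, where 0% to 4.02% of probe sets did in the same direction. At an unadjusted p under 0.05, only Ly6d separated a pair of neighbours, 12 h from 9 h of deprivation. Without the 16 arrays the order at the top was another one, with 9 h of sleep at 0.57, 3 h of sleep at 0.56, 6 h of sleep at 0.55 and baseline at 0.42, followed by 6 h of deprivation (−0.15), 12 h of sleep (−0.17), 3 h of deprivation (−0.41), 12 h of deprivation (−0.57) and 9 h of deprivation (−0.66). Of the 7 sleeping mice at 9 h outside the 16 arrays, the lowest stood at −0.24 and the highest at 1.17.

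**Figure D3:**
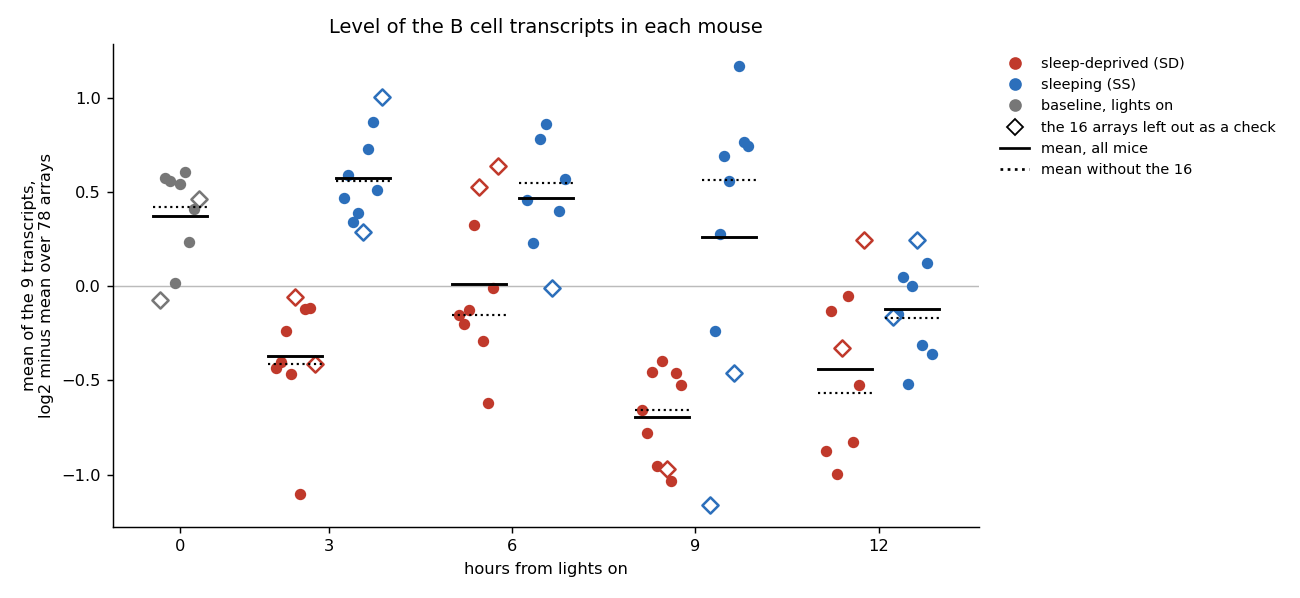
Mean of the 9 transcripts in each mouse (vertical axis, log2 intensity minus the mean over 78 arrays) against hours from lights on; diamonds are the 16 arrays whose number and label disagree in order, solid bars are means of all mice and dotted bars means without the 16. The sleeping mice at 9 h have a mean of 0.26 with all arrays and 0.57 without arrays 10 and 28.

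The spread between sleeping mice was widest at 9 h for all 9 transcripts, and for Cd79b the standard deviation there was 0.69, against 0.25 at 3 h of sleep and 0.23 at baseline. A change in spread was called where both Bartlett's test, after adjustment, and the Brown-Forsythe test passed 0.01. None of the 9 was called over baseline and sleep, where 0.112% of probe sets were, and none over baseline and deprivation, where 0.16% were. Without arrays 10 and 28 the standard deviation of Cd79b at 9 h of sleep was 0.43.

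From mouse to mouse the transcripts moved together, with Ly6d apart. Over the 78 mice the 36 pairs had Pearson correlations from 0.536 to 0.965 (median 0.935) and Spearman correlations from 0.628 to 0.971, and after each group's mean was taken out the Pearson values ran from 0.28 to 0.942. The 8 lowest Pearson values were the 8 pairs with Ly6d. These points share the array and the RNA of a lung, and the correlations are descriptions. Of 18811 other genes, 122 had a correlation over 0.8 with the mean of the 9. The 10 nearest were Cd37 (0.964), Fcrla, Spib, Bcl11a, Cxcr5, Fcrl1, Cd180, Bank1, Gpr183 and Siglecg (0.941), and each of them is in the list of other B cell genes described next.

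That list holds 53 genes, of which 48 were analysed here. Sleep deprivation over all hours went with lower levels of 27 and higher levels of 2, and the median difference was −0.32. Of the receptor and coreceptor genes 9 of 12 fell, among them Fcrla (−0.63), Cd37 (−0.60), a tetraspanin, Fcrl1 (−0.59), Cd72 (−0.56), Cr2 (−0.56), the complement receptor CD21, and Btla (−0.55). Of the signalling genes 6 of 10 fell, led by Bank1 (−0.68 ± 0.13, limma adjusted p = 1.4e-04), a scaffold below the receptor, and Cd180 (−0.68 ± 0.10, adjusted p = 6.6e-07). Fcgr2b, the inhibitory IgG receptor also made by other leukocytes and endothelium, differed by 0.0068 and Rasgrp3 by −0.03. Of the transcription factors 6 of 8 fell, with Spib at −0.68 and Ikzf3 at −0.60. Of the traffic genes 4 of 6 fell, with Cxcr5, the receptor that leads B cells into follicles, at −0.64, and S1pr1 was higher (0.14 ± 0.03, adjusted p = 9.6e-04). S1pr1 is strongly made by endothelium.

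Of the class II accessory genes 2 of 4 fell, and H2-Oa, a chain of H2-O, had the smallest p of all 48 (−0.60 ± 0.08, limma adjusted p = 2.1e-07), reading 6.21 on average in sleep-deprived mice and 6.81 in sleeping mice. Of the immunoglobulin and plasma cell genes none of 8 fell and 1 rose, Derl3, a protein of endoplasmic reticulum quality control (0.39 ± 0.08, adjusted p = 1.8e-04). Sdc1, the plasma cell marker that epithelia also make, differed by −0.02, and Ighm, the heavy chain of IgM, by −0.52 ± 0.15 (adjusted p = 0.014). S1pr1, Derl3 and Ighm were named after their values were seen. Cd40 differed by −0.05. By hour, 26, 0, 17 and 0 of the 48 were lower at 3, 6, 9 and 12 h, and without the 16 arrays 26, 18, 31 and 0. Over all hours 30 of 48 were lower without the 16 arrays.

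Genes of other lymphocytes were lower too. Of 11 NK cell genes 8 fell over all hours (median −0.36), with Il2rb (−0.51 ± 0.08, limma adjusted p = 1.5e-05), Klrb1c (−0.37) and Ncr1 (−0.60). Of 11 T cell genes 2 fell, Cd3e (−0.43 ± 0.12, adjusted p = 0.0092) and Cd3g (−0.46 ± 0.13, adjusted p = 0.0095), and Cd5 differed by −0.33. Without array 27 all 11 T cell genes fell, with a median of −0.40. The per-mouse level of the 9 transcripts correlated with that of the NK genes at 0.759 (Spearman 0.76) and with that of the T cell genes at 0.431 (Spearman 0.792), or 0.787 without array 27. Leaving out the 16 arrays, 10 of 11 NK genes and 1 of 11 T cell genes fell. In the other lists, 1 of 11 neutrophil and monocyte genes fell (Retnlg, −0.64), 1 of 8 macrophage genes (Cd68, −0.24), and none of 5 platelet, 3 red cell, 8 thymus and lymph node or 6 liver genes. Of 12 genes of lung epithelium and endothelium 1 changed, the surfactant protein Sftpd (0.14 ± 0.03, adjusted p = 2.8e-04), and the median was 0.0059. With the 16 arrays left out, 1 platelet gene fell, and 2 macrophage and 2 lung genes rose (share of risen probe sets not given). At 3 h the 6 liver genes had a median difference of −2.08, none past the threshold, and 1 fell without the 16 arrays. Their medians at 6, 9 and 12 h were −0.52, −0.03 and 0.70. Their mean level ran from −1.72 to 0.02 in mice deprived for 3 h and from −0.81 to 4.61 in mice sleeping for 3 h. Over the 78 mice it correlated with the 9 transcripts at 0.254, and at 0.071 with group means taken out. The part of liver RNA was not tested.

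At 3 h, 4 of 11 neutrophil and monocyte genes were lower in sleep-deprived mice (median −0.62), and 6 of 11 without the 16 arrays (median −0.78). At 6, 9 and 12 h none passed in either direction, and the medians were 0.40, −0.14 and −0.28, so the 6 h median lay on the other side. Without the 16 arrays 1 of these genes was higher at 6 h and 1 was lower at 9 h. Their mean level correlated with that of the 9 transcripts at 0.51 over the 78 mice (Spearman 0.601), and at 0.344 with group means taken out. Their part in the B cell result was not tested.

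Of 10 glucocorticoid-induced genes 2 rose in sleep-deprived mice, Cdkn1a (0.56 ± 0.09, limma adjusted p = 9.5e-06), which p53 also induces, and Mt2 (0.28 ± 0.07, adjusted p = 0.0016), while Fkbp5 differed by 0.68 ± 0.21 (adjusted p = 0.024). Of the 10, 4 rose over all hours without the 16 arrays, with a median of 0.39 against 0.28 with all arrays, and by hour 5, 4, 4 and 1 rose at 3, 6, 9 and 12 h, where 2, 0, 0 and 0 did with all arrays. The shares of all probe sets that rose without the 16 arrays are not given here, so the counts in that setting cannot be set against them. Their mean level ran against that of the 9 transcripts over the 78 mice, with a Pearson correlation of −0.705 (Spearman −0.709), and −0.577 with group means taken out. By group it ran from −0.15 to 0.39 at 3 h of deprivation and from −0.73 to 0.08 at 3 h of sleep, and from −0.95 to 0.41 at baseline. Without the 16 arrays it ran from −0.15 to 0.23 at 3 h of deprivation and from −0.73 to 0.08 at 3 h of sleep. At baseline it then ran from −0.95 to −0.39. Its part in the B cell result was not tested.

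**Figure D4:**
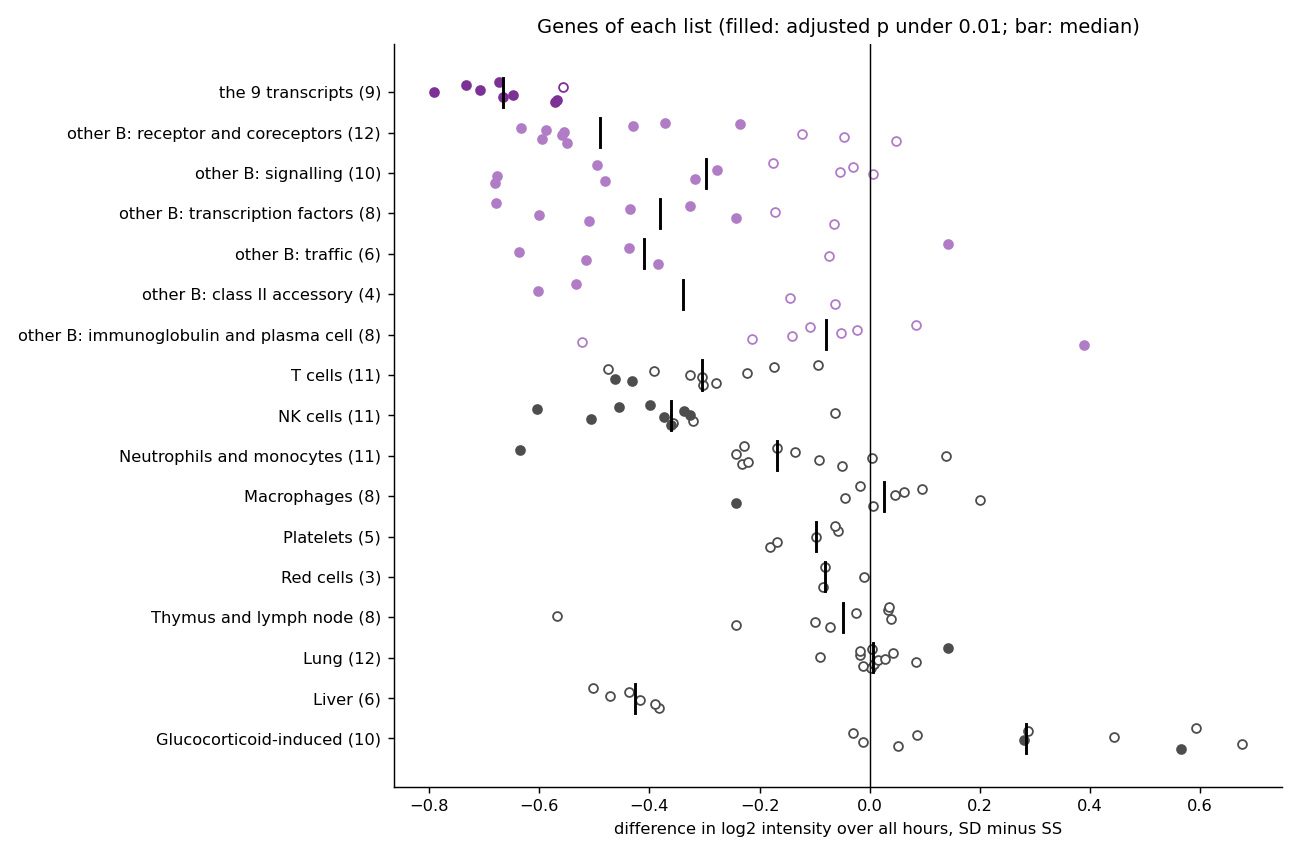
Sleep-deprived minus sleeping difference over all hours (horizontal axis, log2 units) of every measured gene of each list (rows, with the number of genes); filled points passed an adjusted p of 0.01 and bars are list medians. The 9 transcripts have a median of −0.67, NK cell genes −0.36, immunoglobulin and plasma cell genes −0.08 and lung genes 0.0059.

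Ly6d followed the other B cell transcripts less closely from mouse to mouse. The 10 genes nearest to it over the 78 mice, a choice made after its values were seen, were Dapl1 (Pearson 0.911), Fabp5, Pycard, Slc6a19, Tlcd3a, Ccdc69, Zfp750, Car12, Endou and Dkkl1 (0.813), none of them in the lists of B cell genes. Dapl1 and Zfp750 are genes of differentiating stratified epithelium. With the mean of 12 genes of such epithelium (keratins 4, 5, 6a, 13, 14 and 15 with Sprr3, Dsg3, Dsc3, Trp63, Krtdap and Dapl1) Ly6d correlated at 0.798 (Spearman 0.694), and at 0.783 with group means taken out. These 12 genes were listed after that ranking was seen and include its first gene, so their choice partly sets this value. Without Dapl1 it was 0.786 (Spearman 0.657), and 0.773 with group means taken out. With the mean of the other 8 transcripts it correlated at 0.621, and at 0.378 with group means taken out. The other 8 correlated with the epithelial mean at 0.329, and at 0.138 within groups.

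The epithelial mean ran from −1.03 to 2.62 in mice deprived for 3 h and from −1.04 to 2.49 in mice sleeping for 3 h, but only from −1.18 to −0.74 in mice deprived for 9 h, where the 9 h sleeping mice ran from −1.02 to 2.43. The epithelial mean was thus low in every mouse deprived for 9 h (median −0.88), the hour of the largest Ly6d difference. Its median was also low after 3 h of deprivation (−0.97) and 12 h of sleep (−0.97), and was −0.11 after 3 h of sleep. Ly6d averaged 7.26 after 3 h of deprivation and 7.27 after 12 h of sleep, against 6.58 after 9 h of deprivation. Over all hours none of the 12 epithelium genes passed (smallest limma adjusted p = 0.032, Dapl1), and they did not all go the same way. Krt5 (0.25), Krt15 (0.24), Krt14 (0.05) and Krt6a (0.03) were higher in sleep-deprived mice, and the others were lower, from Sprr3 (−1.16) to Trp63 (−0.01). The part of the epithelium in Ly6d was not tested. Array 27 had the highest Ly6d of the mice deprived for 12 h, 8.99, beside an epithelial mean of 0.13, and its Dntt and Rag2, genes of lymphocytes that rearrange their receptors, read above every other array (Rag2 at 6.94, against at most 4.72). Without array 27 the Ly6d difference over all hours passed (−0.61 ± 0.15, limma adjusted p = 0.0028), and at 12 h it was 0.04 ± 0.27.

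**Figure D5:**
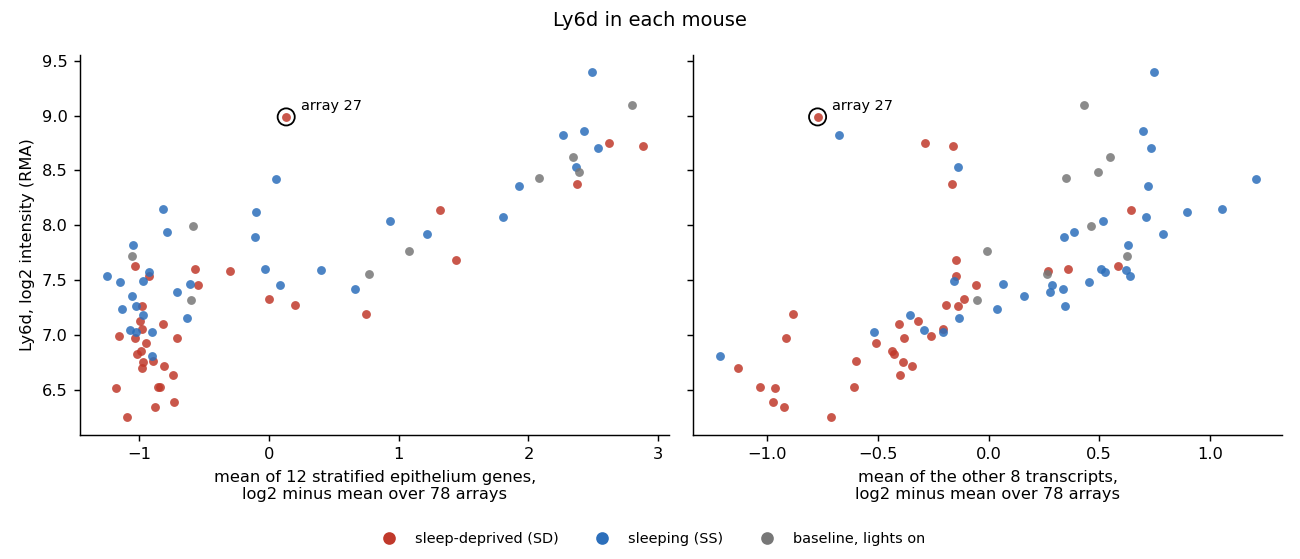
Ly6d log2 intensity in each mouse (vertical axis) against the mean of 12 stratified epithelium genes (left) and the mean of the other 8 B cell transcripts (right), both in log2 units minus the mean over 78 arrays; colours give the state and the circle marks array 27. Over the 78 mice the Pearson correlation is 0.798 on the left and 0.621 on the right.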

How the data were processed

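RNA from the lungs of 78 mice was read on Mouse Gene 1.0 ST arrays (Affymetrix), each mouse on its own array. As deposited, the table holds log2 intensities for 35556 probe sets, which the authors obtained by RMA (background correction, quantile normalization and summary of probes) with the R package oligo. The deposited numbers lack their decimal point. It was put back behind the leading digit, or behind the next one where the leading digit is 1, and the values then ran from 2.27 to 13.85. The number of mice, 7 to 9 per group, limits the precision. Each group is as labelled. That mice were separate animals comes from the study's methods.

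A single symbol names 21218 probe sets. Of several probe sets of a gene, the brightest was used. Differences, slopes and the interaction F test were fitted with limma 3.58.1 (R 4.3.3) over all probe sets, with Benjamini-Hochberg adjustment and a threshold of 0.01. The comparison over all hours left out time, following the study's methods, and those by hour came from 1 fit of 9 group means. The procedure was tested on simulated data. Figures used Python 3.11.15 and matplotlib 3.10.9.

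The members, the gene lists and the tests were chosen with earlier results of these data known. Named genes are the 9 members, 12 other B cell genes with the largest difference past the threshold and 4 with the smallest, the 10 genes most like the members, and up to 3 per other list with the smallest p. The alternatives were leaving out the 16 arrays or each mouse, array weights, trended and robust variances, a filter at a mean of 6, the 4 runs as a block, hour as a factor, only the mice of 1 hour, a common intercept for the slopes, and an adjusted Brown-Forsythe test. Leaving out array 27 with the 16 arrays, and both for the other lists, was added after the data were seen, as were the stratified epithelium genes, their mean without Dapl1 and the genes nearest to Ly6d.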

Additional observations from a re-analysis of the deposited data

Results flagged for a closer look

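Within groups of 7 to 9 mice, the highest or lowest mouse was tested for its distance from the others by Dixon's criterion, for the 9 transcripts and their mean in 9 groups. Of 90 such tests 8 passed, where a single test passes by chance about 1 time in 20. The transcripts move together from mouse to mouse, so the tests are not independent and the count cannot be set against that rate. Mouse 6 of the group deprived for 3 h lay far below the other 8 for Blk (5.38), Fcer2a (6.46), Fcmr (6.51) and the mean of the 9 (−1.10). Mouse 7 of that group lay far above the others for Ly6d (8.75), and mouse 7 of the group sleeping for 3 h did so too (9.40). Pax5 stood far above in mouse 9 sleeping for 3 h (8.82, array 78), and Blk far below in mouse 5 sleeping for 6 h (5.98, array 66). Both arrays are among those that stand apart in their numbering. The profile of array 78 was closest to 6 h of sleep and that of array 66 to 3 h of deprivation. The part of the labels in these Pax5 and Blk values was not tested. Both Ly6d mice had high stratified epithelium levels, 2.62 for the deprived and 2.49 for the sleeping mouse, and the part of these in the values was not tested.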

How the results depend on the processing

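Over all hours the count of 8 lower transcripts stayed between 8 and 9 under every alternative run (9 with array weights, the filter, the block or hour as a factor), and leaving out each mouse in turn gave 8 to 9. At 3 h it was 8 to 9 with each mouse left out. At 6 h, 0 became 5 without the 16 arrays, also with array 27 left out too, and stayed 0 with each mouse left out. At 9 h, 8 became 0 with only the mice of that hour, and leaving out each mouse gave 5 to 9. At 12 h it was 0 throughout, with each mouse left out too. For the slope over sleep, 0 became 2 with array weights and 0 to 1 with each mouse left out (1 without baseline mouse 1). For the slope over deprivation, 8 became 0 with the 4 runs as a block and 7 to 8 with each mouse left out. In that block the slope turned positive for Cd22 over sleep (0.0069) and for Cd79a (0.038), Cd79b (0.0074) and Fcmr (0.10) over deprivation, and the cause was not tested. Against baseline, the count at 3 h of deprivation was 2, and 7 without the 16 arrays, 9 with array weights and 1 with the block. At 12 h of sleep it was 0, and 3 without the 16 arrays and 1 with weights. From 6 h to 9 h of deprivation it was 4, and 0 without the 16 arrays and 7 with weights. From 9 h to 12 h of sleep it was 0, and 6 without the 16 arrays. Beside the main setting, shares of all probe sets are given above only for leaving out the 16 arrays, and there only for lower or non-overlapping probe sets. Counts under array weights, the block and the other alternatives therefore cannot be set against such a share. The 2 lowered T cell genes became 11 without array 27, alone or with the 16 arrays, and 1 without the 16 arrays. Steps from early to late hours could not be fitted with the runs as a block. Averaging several probe sets was not run, since each transcript has 1. No paired analysis was possible because the labels give no replicate numbers shared between groups.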
